A study of Drosophila melanogaster with 9 samples.

Results

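The genes of autophagy and of the vacuolar ATPase were described in the *NΔecd* brain tumour of *Drosophila melanogaster*, in its primary larval form and after serial allografting. Members were taken by name. A gene entered the first group when its symbol began with Atg and a digit, and the second when it began with Vha. This gave 44 of the 13215 features listed in at least 1 table, of which 19 were Atg genes and 25 were Vha genes. The groups are described apart.

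All 9 libraries carried the same genotype. Larval neural lineages bore actin flip-out clones, marked with GFP, that overexpressed UAS-*NΔecd*, a form of Notch that lacks its extracellular domain and signals without ligand. N-FACS libraries held GFP-positive cells sorted from the dissociated brains of 3rd instar larvae, 4 days after clones were induced, with 150 brains to a library. N-T0 libraries held GFP tumour masses from *w1118* adult hosts 8-10 days after the first transplantation, and N-T3 libraries held such masses 6-8 days after the fourth, with 25 hosts to a library in both. The allograft masses were collected whole, without sorting, so that a change of stage and a change from sorted cells to whole masses cannot be told apart in the N-FACS comparisons. Every library pooled many animals and none came from a brain without *NΔecd*. There were 3 libraries in each group.

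The values are group means in normalized counts, which are read counts after division by a size factor for each library. They were solved from the authors' 3 base means per gene, each a mean over the 6 libraries of a pair of groups. The tables were first brought to a common scale, on which the median log2 ratio of each allograft stage to N-FACS was 0 over well expressed features, and ratios against N-FACS that are near 0 or near 0.5 can change sign or side of the limit without this rescaling. Such values are given for the Atg and Vha groups, for most Atg genes concerned and for some of the other lists. Ratios are given on the log2 scale with 3 normalized counts as the floor, and a gene was counted as higher or lower when its log2 ratio reached 0.5 in size. Only group means were used, so no value per library, no replicate error and no test stand behind the differences below, and whether any of them exceeds the spread between the 3 libraries of a group was not tested. The depth of the libraries is not known from these values. As a measure of arithmetic precision alone, moving 1 base mean by 1% moved a member's log2 ratio by 0.03 at the median, and by at most 0.10 against N-FACS and 0.19 between the allografts.

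Autophagy encloses cytoplasm in a double membrane and delivers it to the lysosome. The Atg1 kinase complex starts the process, a lipid kinase complex with Atg6 and Atg14 marks the membrane, Atg9, Atg2 and Atg18 supply lipid, and a pair of conjugation systems attaches Atg8 to the growing sheet. The vacuolar ATPase (V-ATPase) acidifies the lysosome in which the cargo is broken down, and also loads synaptic vesicles in neurons. Its V1 sector hydrolyses ATP and its V0 sector carries protons through the membrane. In Drosophila, several V-ATPase subunits are encoded by more than 1 gene.

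Of the 44 members, 42 were listed in all 3 tables, and 37 of these had a mean of at least 30 normalized counts in 1 or more groups, the limit applied to all features. All 19 Atg genes passed it, and 18 of 25 Vha genes did. Vha36-2, Vha36-3, Vha68-3, VhaAC39-2 and VhaPPA1-2 had a highest group mean between 3.16 and 11.3 normalized counts. Vha100-4, with base means of 2.57 and 3.20 in 2 tables, and Vha16-5, with 1.65 in 1 table, could not be solved. Levels were ranked for the members that passed. The median Atg gene stood at the 68.5th percentile of level among the 11587 features listed in all 3 tables, and the median Vha gene at the 80.7th. The lowest of the members that passed, Atg10, stood at the 37.3rd. The ranked features include those under the limit, so the limit itself raises the percentiles of the members.

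The Atg genes had higher means in the allografts than in the sorted primary cells as a group. In N-T0 against N-FACS, 7 of 19 Atg genes were at least 0.5 higher on the log2 scale, against 23.4% of all features, and 1 was at least 0.5 lower, against 25.4%. Their median log2 ratio was 0.39, against -0.03 for all features, and 17 of 19 ratios were above 0 (12 without rescaling of the tables). In N-T3 against N-FACS, 8 of 19 were higher, against 23.5% of all features, and 0 were lower, against 26.6%, with a median of 0.39 against -0.04, and 17 ratios were above 0 (15 without rescaling). In each of these comparisons, 17 of 19 Atg genes lay above the median of all features. This held on the scale used, on a scale set from features of 1 group alone and without rescaling. A change of scale moves most features together, so the 3 scales are no independent checks. In N-T3 against N-T0, 0 of 19 were higher and 0 were lower, against 5.65% and 12.2% of all features, with a median of 0.14. Both comparisons with N-FACS share those 3 libraries, and autophagy is a process that the study itself discussed from these libraries, so that neither count is independent evidence of a direction. With the base means used as deposited, the median of all features moved to -0.23 in N-T0 and -0.15 in N-T3 against N-FACS, and the Atg medians to 0.19 and 0.26, with 4 genes (Atg101, Atg18b, Atg4b and Atg9) at least 0.5 higher in N-T0, so that Atg6, Atg8a and Atg17 then lay under the limit there.

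**Figure D1:**
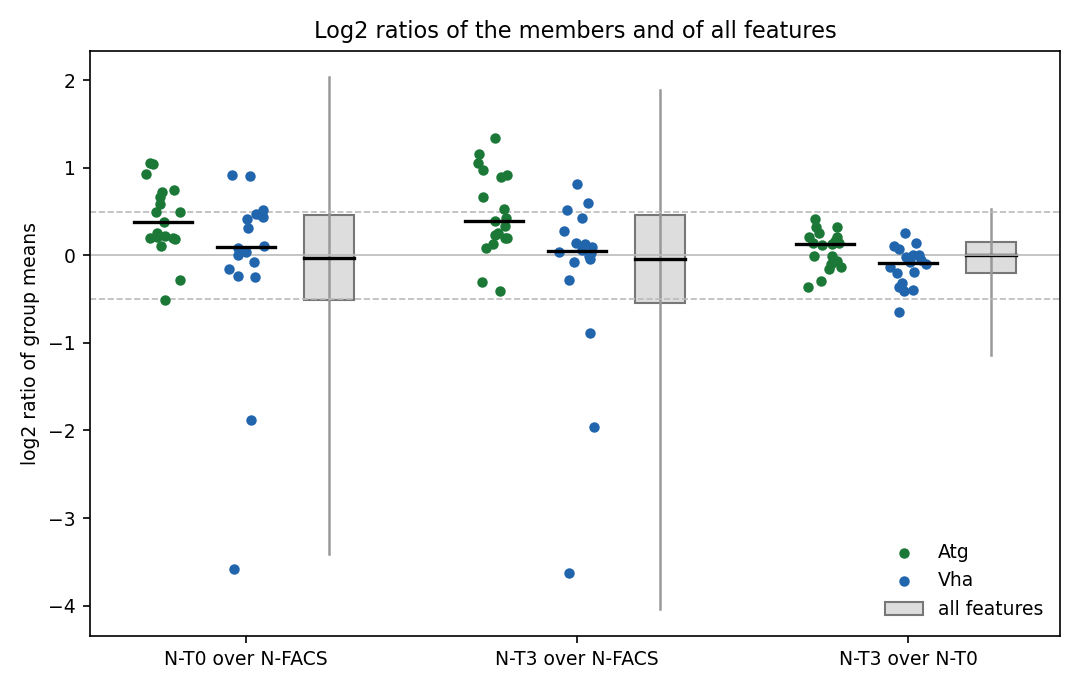
Log2 ratios of group means (vertical axis) for the 19 Atg genes, the 18 Vha genes and all 8445 features in 3 comparisons; points are genes, black bars medians, grey boxes the quartiles of all features and grey lines their 5th to 95th percentile, with dashed lines at a ratio of 0.5 in size. The Atg points lie mostly above 0 in both comparisons with N-FACS (median 0.39 in each), whereas the Vha points centre near 0 with Vha68-1 and VhaM9.7-a far below.

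Among the initiation genes, Atg101, a small partner of Atg13 in the kinase complex, differed most. Its mean was 469 normalized counts in N-FACS, 975 in N-T0 and 973 in N-T3, so that both allograft stages had 2.08-fold the N-FACS level. Atg17, the Drosophila counterpart of the scaffold FIP200, had 1432 normalized counts in N-FACS, 2157 in N-T0 and 2711 in N-T3, with log2 ratios of 0.59 and 0.92 against N-FACS. The kinase itself and its regulator lay within 0.5. Atg1 had 1219, 1594 and 1435 normalized counts in N-FACS, N-T0 and N-T3, and Atg13 had 1004, 1199 and 1152. All 4 initiation genes were above 0 in each allograft stage against N-FACS, while between the allografts their ratios lay between -0.15 and 0.33.

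Atg6 and Atg14 are the fly forms of Beclin and of the subunit that directs the lipid kinase to autophagy. Atg6 had means of 568 normalized counts in N-FACS, 937 in N-T0 and 1123 in N-T3, and its log2 ratio over N-FACS was 0.72 at the first allograft stage and 0.98 at N-T3. Atg14 differed less, with 1120, 1206 and 1334 normalized counts in N-FACS, N-T0 and N-T3, and its ratio of 0.11 in N-T0 over N-FACS turned to -0.10 without rescaling. The 4 genes listed for this lipid kinase and its regulators, which are no members, all had ratios above 0 in each comparison. They include Uvrag, which joins Atg6 in another form of the complex without Atg14, and Rubicon, known in mammals as an inhibitor of that form. Pi3K59F, the catalytic subunit Vps34, had 653 normalized counts in N-FACS, 994 in N-T0 and 1278 in N-T3, and the median of the 4 was 0.45 in N-T0 and 0.63 in N-T3 against N-FACS.

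The 4 genes of membrane supply had the highest median among the roles, 0.58 in N-T0 and 0.85 in N-T3 against N-FACS. Atg9, the membrane-spanning lipid scramblase, had 453 normalized counts in N-FACS, 931 in N-T0 and 1014 in N-T3, which was 2.06-fold and 2.24-fold the N-FACS mean. Atg18b, which belongs to the WIPI family of phosphoinositide-binding proteins, had the largest log2 ratio of any member in N-T3 over N-FACS, at 1.34. Its means were 153 normalized counts in N-FACS, 292 in N-T0 and 389 in N-T3. Its paralog Atg18a was within 0.5 in each comparison, with 1057, 1236 and 1389 normalized counts in N-FACS, N-T0 and N-T3. Atg2, which carries lipid between membranes, reached the limit in N-T3 over N-FACS with a log2 ratio of 0.53 (0.39 without rescaling, under the limit), and had 0.20 in N-T0 over N-FACS (-0.027 without rescaling). These 4 genes also had N-T3 means above their N-T0 means, by 0.12 to 0.42 on the log2 scale.

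The 9 conjugation genes had a median nearer 0, at 0.21 in N-T0 (-0.0055 without rescaling) and 0.20 in N-T3 against N-FACS. Atg8a, the ubiquitin-like protein that is attached to the autophagosome membrane, was the most abundant Atg gene per exonic kilobase in every group. It had 4073 normalized counts in N-FACS, 6497 in N-T0 and 6456 in N-T3, with ratios of 0.67 and 0.66 against N-FACS. Atg4b, a protease that processes Atg8, had 679, 1145 and 1262 normalized counts in the same order, while Atg4a had 625, 725 and 842, with a ratio of 0.21 in N-T0 over N-FACS that turned to -0.0055 without rescaling. Atg5, Atg7, Atg10 and Atg16, which serve the ubiquitin-like conjugation, had ratios between 0.09 and 0.50 against N-FACS, of which those of Atg7 and Atg16 in N-T0 and of Atg10 and Atg16 in N-T3 turned to between -0.0050 and -0.036 without rescaling, with Atg10 and Atg5 just under the limit in N-T0 at 0.499 and 0.492. The remaining pair was lower in the allografts. Atg3, the enzyme that transfers Atg8 to lipid, had 663 normalized counts in N-T0 and 766 in N-T3, against 943 in N-FACS, and its N-T0 ratio of -0.51 was the only Atg value to reach the lower limit, which it missed on the scale set from features of 1 group alone (-0.45). Atg12, the ubiquitin-like partner of Atg5, had 154 in N-T0 and 141 in N-T3, against 186 in N-FACS.

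**Figure D2:**
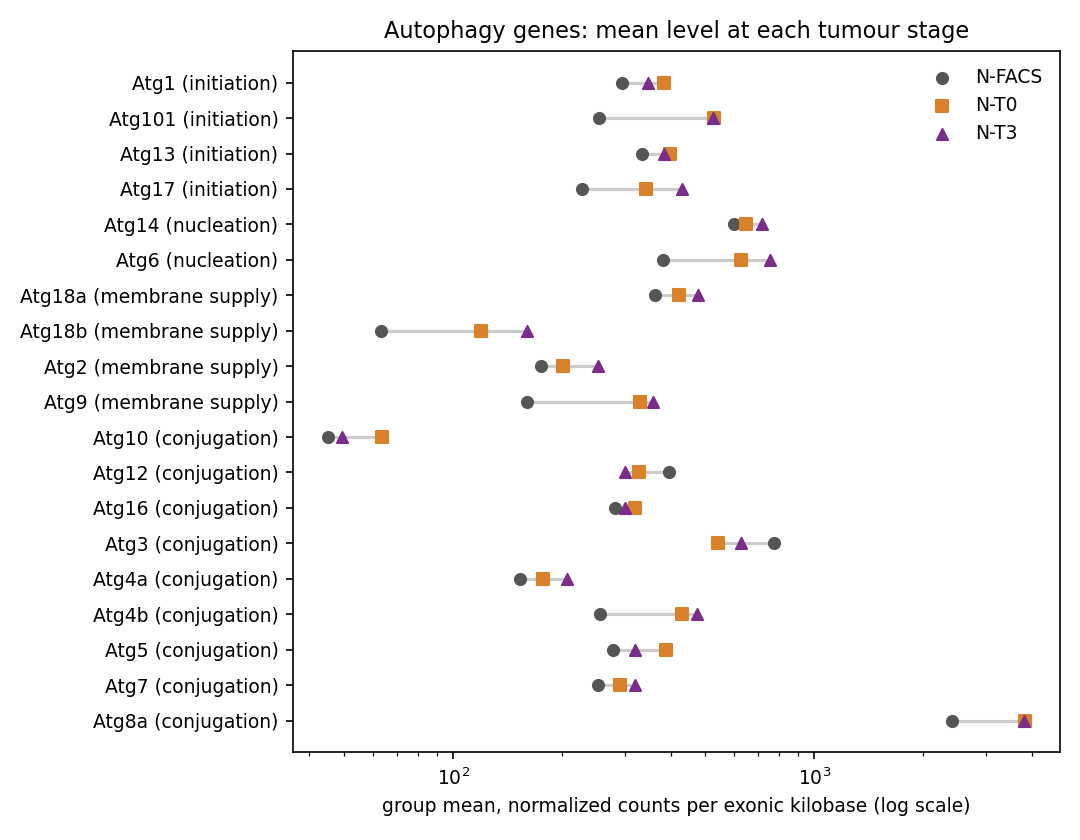
Mean level of each of the 19 Atg genes in normalized counts per exonic kilobase (horizontal log axis), ordered by role, with circles for N-FACS, squares for N-T0 and triangles for N-T3; each symbol is the mean of 3 libraries and has no error bar because only group means were used. Atg101, Atg18b and Atg9 have allograft symbols well to the right of the N-FACS circle, and Atg3 and Atg12 have theirs to the left of it.

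For 3 Atg genes, at least 10% of the exonic bases overlap another gene on the opposite strand in the annotation. These were Atg4a (51.4%, with CG4629), Atg10 (46.6%, with Dgk) and Atg12 (13.6%, with ND-SGDH). Whether the counting used strand is not given in the sources used here, so the values of these 3 genes may hold reads of their neighbours. Atg101 (chromosome X:18791668-18793517), Atg9 (2R:16294400-16297232), Atg18b (2L:21212322-21220572) and Atg8a (X:10764878-10768338), given on BDGP6.54, had no such overlap.

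The V-ATPase genes showed no common shift against N-FACS, and their 2 lowest ratios belonged to genes with paralogs. In N-T0 against N-FACS, 3 of 18 Vha genes were at least 0.5 higher on the log2 scale, against the 23.4% of all features, 2 were at least 0.5 lower, against 25.4%, and 13 lay between. In N-T3 against N-FACS, 3 were higher and 3 lower, against 23.5% and 26.6%. The median log2 ratio was 0.10 in N-T0 and 0.05 in N-T3. In N-T3 against N-T0, 0 of 18 were higher and 1 was lower, against 5.65% and 12.2% of all features, and the median was -0.09. Without rescaling of the tables, these 3 medians turned to -0.085, -0.063 and 0.014, and 1 gene, VhaM9.7-c, was higher in N-T3 against N-FACS. On the scale set from features of 1 group alone, 6 were higher in N-T0 against N-FACS. On the scale used, the share of Vha genes within 0.5 was 72.2% in N-T0 and 66.7% in N-T3 against N-FACS. All features had 51.2% and 49.9%. The N-T0 share of Vha genes falls on the scale set from features of 1 group alone, with 6 genes higher and 2 lower.

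Several core subunits with a single expressed gene had close means in all 3 groups. Vha55, the B subunit of the catalytic ring, had 2798 normalized counts in N-FACS, 2819 in N-T0 and 2794 in N-T3. Vha14-1, Vha36-1 and VhaSFD, the F, D and H subunits, had ratios between -0.15 and 0.15 in every comparison. Vha26, the E subunit of the peripheral stalk, had 3452, 4683 and 3542 normalized counts in N-FACS, N-T0 and N-T3, and thus stood apart in N-T0 by 0.44 over N-FACS. VhaPPA1-1, the c'' subunit of the proton-carrying ring, had a like order of means, with 1665, 2289 and 1777. Vha16-1, the c subunit of the same ring, was the most abundant Vha gene per exonic kilobase in each group and had 10873 normalized counts in N-FACS, 11705 in N-T0 and 8936 in N-T3.

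Subunit A, which holds the catalytic site, has the genes Vha68-1, Vha68-2 and Vha68-3, all at 2L:12974322-13004107 on BDGP6.54. Vha68-1 had 71.1 normalized counts in N-T0 and 68.7 in N-T3, against 849 in N-FACS, and was thus 11.9-fold and 12.4-fold lower in the allografts. The low allograft level is also plain in the deposited values, since the base mean was 67.1 over the allograft libraries, against 460 and 471 in the tables that include N-FACS. Which allograft stage had more of it could not be read from these values, as a 1% move of 1 base mean carried the N-T3 to N-T0 ratio between -0.24 and 0.14. Vha68-2 was higher, with 3912 normalized counts in N-T0 and 3932 in N-T3, against 2735 in N-FACS, a log2 ratio of 0.52 in both that was 0.30 and 0.37 without rescaling, under the limit. Per exonic kilobase, Vha68-1 made up 1.84% of the summed level of the 3 paralogs in N-T0 and 1.76% in N-T3, against 24.2% in N-FACS. The summed level itself was 1447 normalized counts per kilobase in N-T0 and 1455 in N-T3, against 1311 in N-FACS. These genes are paralogs of like sequence, so that reads shared between them would make the division between them uncertain.

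The e subunit, a small V0 protein, also had paralogs that differed in opposite directions. Whether 1 paralog took the place of another within cells was not tested, for this subunit or for subunit A. VhaM9.7-a had 81.3 normalized counts in N-T0 and 77.1 in N-T3, against 300 in N-FACS, which was 3.70-fold and 3.90-fold lower. VhaM9.7-c had 250 in N-T0 and 233 in N-T3, against 133 in N-FACS, with log2 ratios of 0.91 and 0.81. VhaM9.7-b, the most abundant of the 3 in each group, had 1282 in N-T0 and 1113 in N-T3, against 919 in N-FACS. Per exonic kilobase, VhaM9.7-a made up 7.82% of the e-subunit level in N-T0 and 8.36% in N-T3, against 31.7% in N-FACS, and VhaM9.7-c 20.1% and 21.2%, against 11.7%. The summed level was 1464 normalized counts per kilobase in N-T0 and 1299 in N-T3, against 1336 in N-FACS.

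The a subunit, which anchors V1 to V0 and sets where the pump resides, differed between the allografts. Vha100-2 had 280 normalized counts in N-T3, against 436 in N-T0, a log2 ratio of -0.64 and the only member past the limit between the allografts. Against the N-FACS mean of 518, its ratio was -0.25 in N-T0 and -0.89 in N-T3. Vha100-1, known in Drosophila as the form at neuronal synapses, had 2018 normalized counts in N-FACS, 2143 in N-T0 and 1962 in N-T3. Its share of the a-subunit level per exonic kilobase was 79.3% in N-FACS, 82.8% in N-T0 and 87.3% in N-T3.

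**Figure D3:**
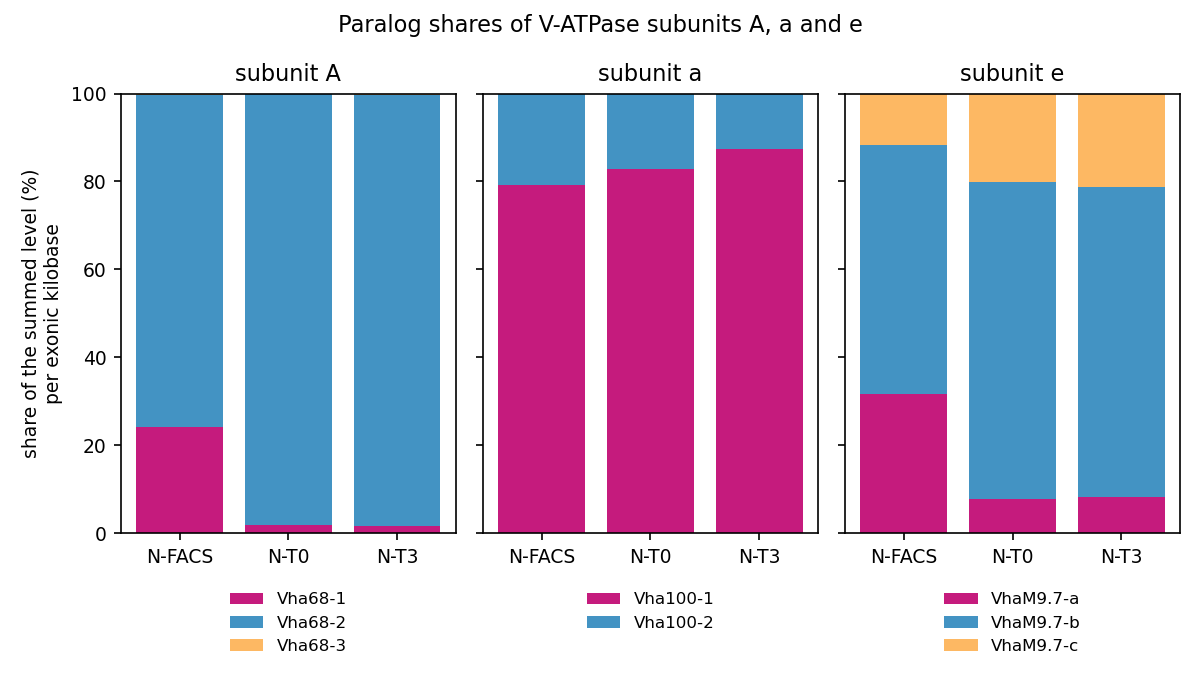
Share of each paralog in the summed level per exonic kilobase (vertical axis, percent) for V-ATPase subunits A, a and e in N-FACS, N-T0 and N-T3; the bars are computed from group means of 3 libraries and have no error bars. The Vha68-1 share is 24.2%, 1.84% and 1.76% across the stages, and the VhaM9.7-a share 31.7%, 7.82% and 8.36%.

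Of the remaining V-ATPase genes, VhaAC45, an accessory subunit that aids the assembly of the pump, had the highest ratio of the Vha genes in N-T0 over N-FACS (0.92), with 3414 normalized counts in N-T0 and 2738 in N-T3, against 1804 in N-FACS. VhaAC39-1, the d subunit of the central stalk, had 2468 in N-T0 and 2477 in N-T3, against 1844 in N-FACS, ratios of 0.42 and 0.43. Vha44 and Vha13, the C and G subunits, were within 0.32 of 0 in each comparison. By sector, the median level of V1 genes was 991 normalized counts per kilobase in N-FACS, 1012 in N-T0 and 1003 in N-T3, and that of V0 genes was 685, 853 and 756. In N-T3 against N-T0, 7 of 8 V0 genes had ratios below 0 (6 without rescaling), with a median of -0.17. Of the 9 V1 genes, 4 were below 0 (2 without rescaling), with a median of 0.007. Without Vha68-1 and VhaM9.7-a, a choice made after their values were seen, the Vha median was 0.21 in N-T0 and 0.08 in N-T3 against N-FACS.

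**Figure D4:**
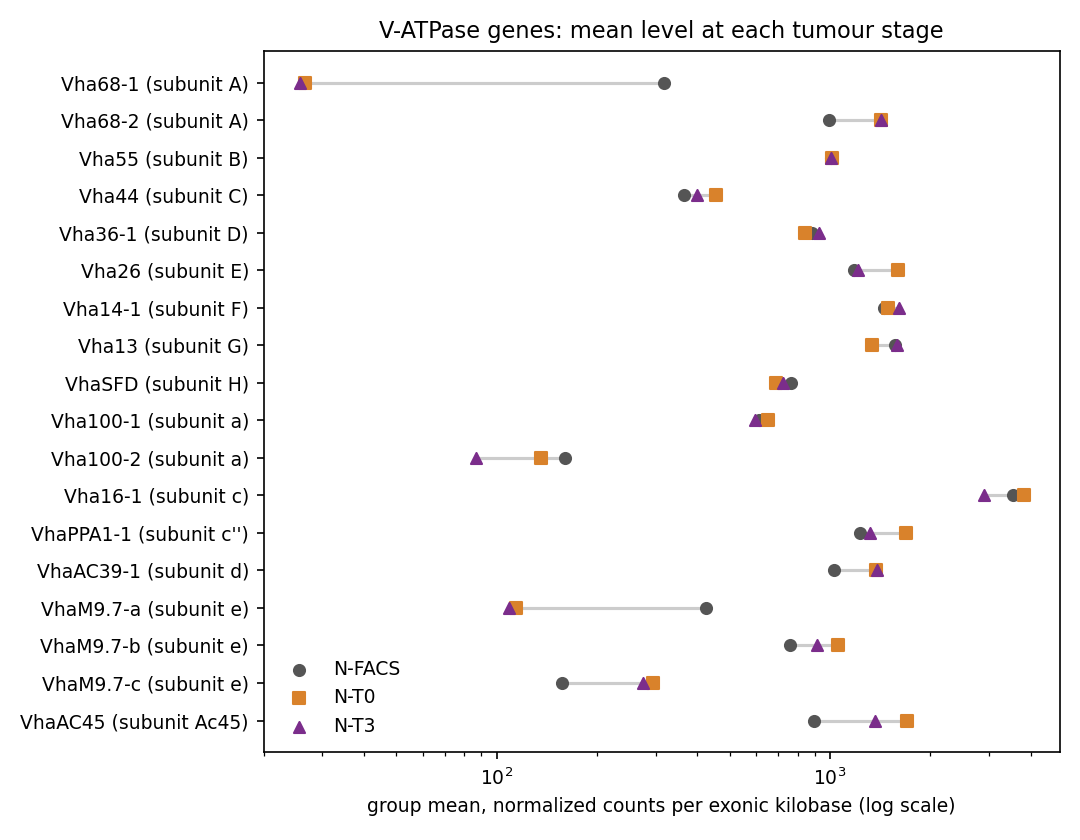
Mean level of the 18 Vha genes past the limit in normalized counts per exonic kilobase (horizontal log axis), V1 subunits above V0 subunits and VhaAC45 last, with circles for N-FACS, squares for N-T0 and triangles for N-T3; each symbol is the mean of 3 libraries, without an error bar. Vha68-1 and VhaM9.7-a have allograft symbols far left of the N-FACS circle, and Vha55 has its 3 symbols together.

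Markers of neurons and glia differed between the stages. All 6 neuronal markers were at least 0.5 lower on the log2 scale in N-T0 and in N-T3 than in N-FACS. Of all features, 25.4% and 26.6% were. The summed level of the neuronal markers was 1056 normalized counts in N-T0 and 1289 in N-T3, against 12191 in N-FACS. In N-T3, 2 of the 6 were under the floor. The vesicle protein gene nSyb had 33.9 in N-T0 and 2.89 in N-T3, against 1686 in N-FACS. Of the 5 glial markers, 4 were lower at each allograft stage, with repo, which defines most glia, at 4.65 in N-T0 and 1.28 in N-T3, against 540 in N-FACS. The neural stem cell markers summed to 71694, 79095 and 82514 normalized counts in N-FACS, N-T0 and N-T3, mostly from mira, and 3 of the 6 were below 0 at each allograft stage against N-FACS. Among these, ase had 330 in N-T0 and 146 in N-T3, against 2560 in N-FACS, and wor had 5536 and 8568, against 9731. The log2 ratios of N-T3 to N-T0 were -1.17 for ase and 0.63 for wor. How the small allograft remainders of neuronal and glial markers, such as nSyb, divide between N-T0 and N-T3 turned with the scale. No difference between the allografts is read from those remainders. The part of the neuronal and glial RNA in the differences of the members was not tested. In bulk libraries, fewer cells of a type and less RNA per cell cannot be told apart.

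Host tissue markers also differed between the stages. Those of gut and Malpighian tubule summed to 11.2 normalized counts in N-FACS, 479 in N-T0 and 24.4 in N-T3, with 3 of the 4 under the floor in N-FACS. Plasmatocyte markers, of blood cells that engulf debris, summed to 638, 2714 and 1808, crystal cell markers to 77.5, 205 and 76.5, and adult fat body markers to 10574, 15190 and 14961, mostly from FASN1. The yolk protein genes Yp1 and Yp2 had 435 and 527 normalized counts in N-T0, against 16.7 and 29.8 in N-FACS, and 86.4 and 100.3 in N-T3. Not all markers of these lists had this order. Lpin, of the fat body list, had 1296 in N-FACS, 809 in N-T0 and 934 in N-T3. Pxn, of the plasmatocyte list, had 281, 182 and 90.3 in the same order. FASN1 had 9119, 13024 and 13670, so that the fat body sum is no measure of host tissue alone. Muscle markers summed to 19.5, 35.8 and 23.8. N-T0 thus had the highest sum of each of these lists. The part of host RNA in the means of the members was not tested.

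The other genes of the pathway were described from lists of regulators, fusion factors, lysosomal proteins and V-ATPase assembly factors. Of 54 genes listed, 49 were matched and 48 passed the limit. In N-T0 against N-FACS, 15 of 48 were at least 0.5 higher and 5 lower, with a median log2 ratio of 0.30. In N-T3 against N-FACS, 13 were higher and 4 lower, with a median of 0.23, and in N-T3 against N-T0, 0 were higher and 7 lower, against 5.65% and 12.2% of all features, with a median of 0.02. All features had 23.4% higher and 25.4% lower in N-T0 against N-FACS, and 23.5% and 26.6% in N-T3 against N-FACS.

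Among the 11 genes of TOR, AMPK and transcriptional input, 4 were at least 0.5 higher and 2 lower in N-T0 against N-FACS, against 23.4% and 25.4% of all features, and 5 were higher and 0 lower in N-T3 against N-FACS, against 23.5% and 26.6%. Without rescaling, 2 were higher and 3 lower in N-T0 against N-FACS, and 3 were higher and 1 lower in N-T3 against N-FACS. SNF4Agamma, the γ subunit of the energy sensor AMPK, had 5338 normalized counts in N-T0 and 5556 in N-T3, against 2357 in N-FACS. The gene gig, which encodes the TOR inhibitor TSC2, had 2267 and 2332, against 1323. Tor, the kinase that restrains autophagy when nutrients are plentiful, had 1490 in N-T0 and 1785 in N-T3, against 2350 in N-FACS, ratios of -0.66 and -0.40. The transcription factors REPTOR and REPTOR-BP act together downstream of TOR and differed in opposite directions. REPTOR had 1957 and 2584, against 3538 in N-FACS, whereas REPTOR-BP had 2309 and 2871, against 1388. Mitf, the fly TFEB and a known activator of V-ATPase genes, had 1603 normalized counts in N-T0 and 1244 in N-T3, against 1213 in N-FACS. The cargo receptor gene ref(2)P, whose product p62 is itself degraded by autophagy, had 2759 in N-T0 and 3726 in N-T3, against 1447 in N-FACS, and its log2 ratio of 1.36 in N-T3 over N-FACS was next to the 1.34 of Atg18b.

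Genes of lysosomal proteins had lower means in N-T3 than in N-T0. In N-T0 against N-FACS, 6 of 13 were at least 0.5 higher and 2 lower, against 23.4% and 25.4% of all features. In N-T3 against N-FACS, 1 was higher and 4 lower, against 23.5% and 26.6%. These counts turned with the scale. Without rescaling, 3 were higher and 2 lower in N-T0 against N-FACS. On the scale set from features of 1 group alone, 3 were higher and 2 lower in N-T3 against N-FACS. In N-T3 against N-T0, 0 of 13 were higher and 7 lower, against 5.65% and 12.2% of all features. All 13 ratios were below 0 (12 without rescaling) with a median of -0.57. All 13 also lay below the median of all features on each of the 3 scales, which are no independent checks. Cp1, a cathepsin L protease, had 5863 normalized counts in N-T3, against 8732 in N-T0, beside 4366 in N-FACS. Lamp1, a protein of the lysosomal membrane, had 3372 in N-T3, against 5320 in N-T0, beside 3337 in N-FACS. Sap-r, the saposin precursor, had 3954 in N-T3, against 6913 in N-T0, beside 4990 in N-FACS. The V-ATPase accessory gene ATP6AP2 had a like order, with 3144 in N-T3, against 4367 in N-T0 and 2652 in N-FACS. In the same comparison the plasmatocyte markers were at least 0.5 lower for 4 of 5 genes past the limit, the gut and Malpighian tubule markers for 4 of 4, and the adult fat body markers for 3 of 5, with Yp1, Yp2 and apolpp, the last at 170 in N-T3, against 395 in N-T0. The part of the blood cells and other host tissue in the lysosomal values was not tested.

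**Figure D5:**
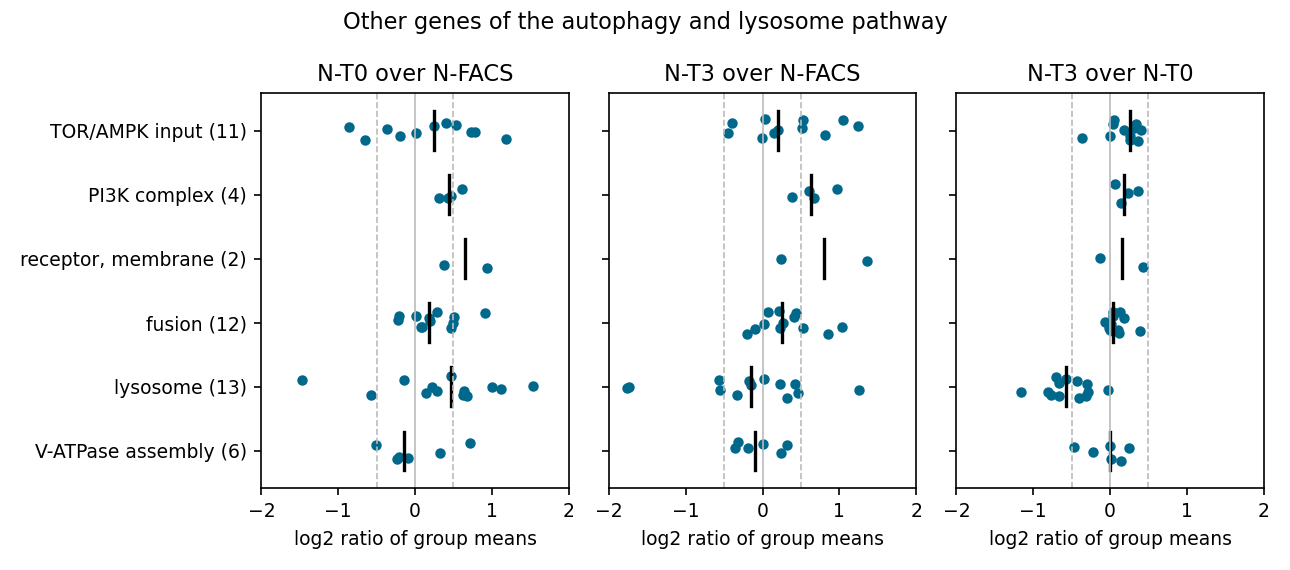
Log2 ratios of group means (horizontal axis) for 48 other genes of the pathway in 6 lists, with the number of genes in parentheses, in the 3 comparisons; points are genes, black bars medians and dashed lines a ratio of 0.5 in size. In N-T3 over N-T0 the 13 lysosomal genes all lie below 0 (12 without rescaling), around a median of -0.57, while the 4 genes of the lipid kinase complex lie above 0.

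Fusion factors lay closer to 0. The median of 12 genes was 0.18 in N-T0 (-0.021 without rescaling) and 0.25 in N-T3 against N-FACS, with 2 and 3 genes at least 0.5 higher, near or below the 23.4% and 23.5% of all features, and 0 lower. Vps33B, a Sec1-like protein of endosome tethering, had 1198 normalized counts in N-T0 and 1308 in N-T3, against 639 in N-FACS. Syx17, the SNARE of the completed autophagosome, had 237 and 309, against 170. Of the 6 V-ATPase assembly and accessory genes, ATP6AP2 was higher in N-T0 against N-FACS with a ratio of 0.72. Rbcn-3B, a subunit of the assembly factor rabconnectin-3, was lower with -0.50 (-0.45 on the scale set from features of 1 group alone, under the limit). In N-T3 against N-FACS, 0 of 6 reached the limit.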

How the data were processed

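The authors checked reads with FastQC 0.11.9, mapped them with STAR 2.7.5 (BDGP6.32), counted with featureCounts 2.0.1 and ran DESeq2 1.30.1 in R 4.0.2. The depth per library is unknown, and limits the precision of low means. Each of the 3 deposited tables covers 1 pair of groups and gives per feature a base mean, a score without fixed range that the authors formed as the mean normalized count over 6 libraries. In 2 tables each line carries an added layer of quotes, which was removed. The authors' comparison columns (fold changes, standard errors, statistics, p-values and adjusted p-values) were not used.

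Group means were solved here from the 3 base means (Python 3.11.15 with pandas 2.3.3, numpy 2.4.6 and scipy 1.17.1; figures with matplotlib 3.10.9), which was tested on simulated data. In the simulation most features had equal means in all groups, so a median ratio of 0 held by construction. It therefore could not test the choice of scale. The tables were brought to 1 scale so that the median log2 ratio of both allografts to N-FACS was 0 over 7283 features with base means of at least 30, with factors of 1.027 and 0.960. Of 8195 features checked, 14 had a solved mean below 0, at lowest -0.50% of the base mean. Of the 13215 features, 11587 were listed in all 3 tables and could be solved. Features needed a largest group mean of 30, which 8445 of the solved features had, and ratios a floor of 3. No test fits 1 mean per group, so the counts at 0.5 on the log2 scale are descriptions. Positions and exonic lengths are those of the Ensembl 115 annotation of BDGP6.54. By the rule for named genes, every member past the filter and every gene of the pathway list could be named. Members and lists were chosen with earlier results of these data known. No promoter or protein sequence was used here. The testis markers bam and can summed to 640, 662 and 473 in N-FACS, N-T0 and N-T3. Alternatives were other scales, floors, filters and limits.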

Additional observations from a re-analysis of the deposited data

How the results depend on the processing

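No paired analysis was possible because the tables give 1 base mean per pair of groups, and for the same reason no library could be left out in turn. The scale named above as set from features of 1 group alone took 1 factor from 18 features almost confined to N-FACS. Its other factor came from the feature with the least share in N-FACS. With this scale, the Atg genes at least 0.5 lower in N-T0 against N-FACS became 0 and the Vha genes at least 0.5 higher became 6. Without any rescaling, the Atg medians against N-FACS were 0.19 in N-T0 and 0.26 in N-T3, 4 Atg genes were higher in N-T0 against N-FACS and 1 was higher in N-T3 against N-T0, the Vha medians were -0.085 in N-T0 and -0.063 in N-T3 against N-FACS and 0.014 in N-T3 against N-T0, and 1 Vha gene was higher in N-T3 against N-FACS. Relative to the median of all features, the Atg medians against N-FACS were then 0.41 in N-T0 and 0.41 in N-T3, beside 0.42 and 0.43 on the scale used in the report. With a limit of 1 in place of 0.5, the higher Atg genes were 2 in N-T0 and 3 in N-T3 against N-FACS and the lower ones 0 in N-T0, and the Vha genes were 0 higher in both and 0 lower in N-T3 against N-T0. With a minimum mean of 10, or none, 1 Vha gene was higher in N-T3 against N-T0. Without Vha68-1 and VhaM9.7-a, which was chosen after seeing the data, the Vha median in N-T0 against N-FACS was 0.21. In shares not taken per kilobase, also chosen after seeing the data, VhaM9.7-a made up 22.2% in N-FACS, and VhaM9.7-b 79.5% in N-T0 and 78.2% in N-T3, against 68.0% in N-FACS. Why each of these values moved was not tested. No promoter motif was searched here. The unknown depth limits low means most.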
